A study of Mus musculus with 119 samples.

Results

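Bone marrow-derived macrophages (BMDMs) of Map3k8[D270A] mice, which express a kinase-inactive form of TPL-2, were compared with WT BMDMs after LPS at 100 ng/ml for 0.5 h. The comparison held 12 RNA-seq libraries, 10.1% of those in the series: 6 of Map3k8[D270A] cells, numbered 1 to 6, and 6 of WT cells, numbered 4 to 9, and they were chosen by the genotype and time in the sample labels. Both groups were on the C57BL/6(NIMR) background, were grown from the marrow of both femurs in L-cell conditioned medium, were kept overnight in low serum before LPS was added, and received no inhibitor at 0.5 h. The study's methods call the libraries biological replicates, and no source used here says which came from separate mice. Each p value of the main fit measures the spread within groups over 62 libraries, not within these 12 alone. The 62 include other times and Elk1-/-Elk4-/- cells, and part of the spread may be technical. The D270A allele changes an amino acid of the kinase and leaves the transcript in place, so the genotype labels cannot be checked from Map3k8 mRNA.

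TPL-2, the product of Map3k8, is a MAP 3-kinase that is held inactive by the NF-κB precursor p105. When LPS engages TLR4, the IKK complex marks p105 for degradation, which frees TPL-2 to phosphorylate MKK1/2 and so to activate ERK1/2. ERK1/2 in turn act on transcription factors such as the ternary complex factors ELK1 and ELK4, which bind beside serum response factor (SRF) at immediate early genes, a class of genes that are transcribed within minutes of a stimulus without new protein synthesis. The earliest genes that LPS induces in macrophages include this class, together with cytokine, chemokine, and feedback genes of the NF-κB response.

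Values are the deposited log2 values, and differences between groups are in the same log2 unit, in which 1 stands for a 2-fold change. No source used here names the transformation behind these values, and genes of low abundance lie near a floor, so a difference can be smaller than the same difference between counts. In the 12 libraries the median of the genes tested lay between 9.06 and 9.11. The precursor ribosomal RNA Rn45s was above 16 in WT replicates 6, 8, and 9 and in D270A replicate 2, and ranged from 14.42 to 17.99 over all 12. All 12 macrophage markers, such as Adgre1 and Csf1r, passed the filter on low values, and their summed level ran from 18.8 to 19.0 in WT and from 18.8 to 19.0 in D270A cells. The summed level of 12 neutrophil markers ran from 6.57 to 7.45 in WT and from 6.54 to 7.29 in D270A cells. Of these 12, 7 were below the filter in all 12 libraries, such as Ly6g and Elane, and S100a8, S100a9, Ngp, Ltf, and Lcn2 reached it. Of 9 lymphocyte markers 8 were below the filter, such as Cd3e, Cd3d, and Cd3g, and Cd79b reached it. The summed levels of lymphocyte, dendritic cell, mast cell, stromal, and erythroid markers also overlapped between the genotypes. In bulk RNA a change in the share of responding cells and a change in RNA per cell cannot be told apart.

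A gene was called lower or higher at an adjusted p below 0.05 (limma, Benjamini-Hochberg adjustment) with a difference of at least 1. Of 11884 genes tested, 12 were lower in D270A cells (0.101%) and 4 were higher (0.0337%). These became 6 lower and 7 higher genes in the first replicate set fitted alone (WT 4 to 6 and D270A 1 to 3), and 27 and 3 in the second (WT 7 to 9 and D270A 4 to 6). Without the size limit, 106 genes were lower (0.892%) and 57 were higher (0.48%). With the 12 libraries fitted alone these became 64 and 27. The balance of lower and higher genes without the size limit turned with some settings: quantile normalization gave 114 higher genes, more than the lower ones, library quality weights gave 319 lower and 408 higher, and the first replicate set alone gave 84 and 120. Without WT replicate 8, WT replicate 9, or D270A replicate 2 the higher genes numbered 31, 94, and 34. The 6 libraries of D270A cells all lay below the 6 of WT for 117 genes (0.985% of those tested) and all above for 80 (0.673%). Among the 16 genes called with the size limit, 7 of the 12 lower genes were genes that LPS induces, and the difference was lower with LPS than without for each of the 7 (Egr3 was higher in D270A cells without LPS), whereas the 4 higher genes and 4 of the remaining 5 lower genes already differed between the genotypes without LPS, and BC002163 was neither. Of the 163 genes called by adjusted p alone, 32 were LPS-induced and lower, 60 also differed in the same direction without LPS, and 71 were neither. Over all genes tested, 0.547% were LPS-induced and 1.44% differed between the genotypes without LPS. Leaving out WT replicates 6, 8, and 9 and D270A replicate 2, the libraries with the most Rn45s, left 10 lower and 5 higher genes with the size limit, and 39 lower and 20 higher genes without it.

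**Figure D1:**
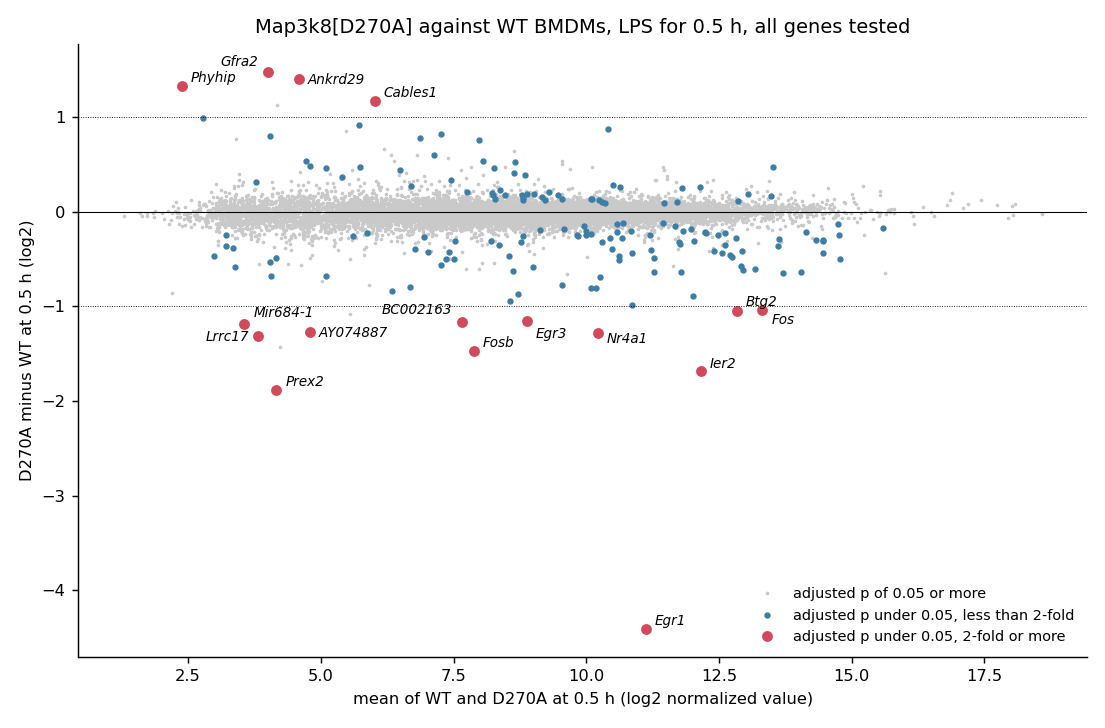
The difference D270A minus WT at 0.5 h (log2, vertical axis) is plotted for each of the 11884 genes tested against the mean of both genotypes (log2 normalized value, horizontal axis), with each called gene labelled and dotted lines at differences of 1 and -1. Egr1 lies apart from all other genes at -4.41, and the 4 higher genes lie at low mean levels.

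Egr1 showed the most negative difference of the genes tested. This zinc finger transcription factor is a textbook target of ERK1/2 signaling and SRF. In WT cells at 0.5 h its 6 values ran from 13.02 to 14.27 with a median of 13.17, and in D270A cells from 8.66 to 9.15 with a median of 8.90, so the groups were far apart. The WT mean was 13.3 ± 0.48 (SD, n = 6). The D270A mean was 8.91 ± 0.22 (SD, n = 6), a difference of -4.41 ± 0.135 (SE; adjusted p = 1.13e-32). Without LPS the same gene ran from 7.70 to 8.33 in WT and from 7.99 to 8.39 in D270A cells. LPS raised Egr1 by 5.34 in WT and by 0.76 in D270A cells, and the smaller rise also passed the test.

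Of the 5 genes of the Egr and Nab list that were tested, which holds the Egr transcription factors and the Nab proteins that bind and repress them, 3 fell (0.892% of all genes) and none rose (0.48%). Egr3 ran from 8.95 to 10.03 in WT (median 9.44) and from 8.12 to 8.52 in D270A cells (median 8.22), which did not overlap. Its difference at 0.5 h was -1.16 ± 0.134 (SE; adjusted p = 9.13e-09). The direction for Egr3 was the opposite without LPS, when its 6 values were 7.60 to 8.13 in D270A cells and 6.81 to 7.20 in WT, a difference of 0.82 (adjusted p = 6.88e-05). LPS raised it by 2.46 in WT and by 0.47 in D270A cells. Egr2 had a difference of -0.89 ± 0.147 (SE; adjusted p = 4.3e-05), with WT from 11.98 to 13.17 and D270A from 11.24 to 12.12, so D270A replicate 4 lay within the WT range. With the 12 libraries fitted alone Egr2 did not pass (adjusted p = 0.0895). Nab1 (difference -0.10, adjusted p = 0.292) and Nab2 (0.04, adjusted p = 0.91) did not pass the test. Egr4 was below the filter on low values and was not tested.

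In the Fos family, whose proteins pair with Jun proteins to form the AP-1 transcription factor, Fos and Fosb fell and Fosl1 and Fosl2 did not pass the test. Fos ran from 13.59 to 13.99 in WT (median 13.86) and from 12.57 to 12.93 in D270A cells (median 12.85). The groups did not overlap, and the difference was -1.04 ± 0.0937 (SE; adjusted p = 3.23e-12). Fosb ran from 7.89 to 9.34 in WT (median 8.65) and from 6.93 to 7.67 in D270A cells (median 7.05), a difference of -1.47 ± 0.142 (SE; adjusted p = 2.88e-11). Within WT, replicates 4, 5, and 6 (7.89, 7.97, and 8.37) lay below replicates 7, 8, and 9 (9.34, 9.18, and 8.94). Fosl2 differed by -0.09 (95% interval -0.31 to 0.14) and Fosl1 by 0.17 (95% interval -0.13 to 0.47). LPS had moved Fosl1 by 0.17 in WT and 0.18 in D270A cells at 0.5 h.

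Of the Jun family, Jun and Junb fell and Jund did not pass the test at 0.5 h. Jun ran from 13.33 to 13.66 in WT and from 12.83 to 12.94 in D270A cells, a difference of -0.60 ± 0.0856 (SE; adjusted p = 1.76e-06). Junb ran from 14.04 to 14.68 in WT and from 13.53 to 13.92 in D270A cells, a difference of -0.63 ± 0.076 (SE; adjusted p = 2.55e-08). Neither gene overlapped between the genotypes. Jund had a difference of -0.23 (adjusted p = 0.0558), and -0.22 without LPS (adjusted p = 0.0649), and passed the threshold without D270A replicate 1 or 2 and in 6 other settings. None of the 12 ATF and other AP-1 partner genes tested passed the threshold (1.37% of all genes did), and their differences lay between -0.11 and 0.05. At that share few or none of a list of this size would pass. In the second replicate set 1 of the 12 was lower (1.89% of all genes).

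Nr4a1, an orphan nuclear receptor of the immediate early class, fell, and Nr4a2 and Nr4a3, the other members of its family, did not pass the test. Nr4a1 ran from 10.14 to 11.58 in WT (median 10.91) and from 9.26 to 9.75 in D270A cells (median 9.63), a difference of -1.28 ± 0.135 (SE; adjusted p = 5.38e-10). Its WT values again fell into a lower group of replicates 4 to 6 (10.35, 10.14, and 10.66) and a higher group of replicates 7 to 9 (11.58, 11.16, and 11.23). Nr4a2 differed by -0.30 (adjusted p = 0.106) and Nr4a3 by -0.11 (adjusted p = 0.859), and LPS had moved them by 0.17 and 0.25 in WT.

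**Figure D2:**
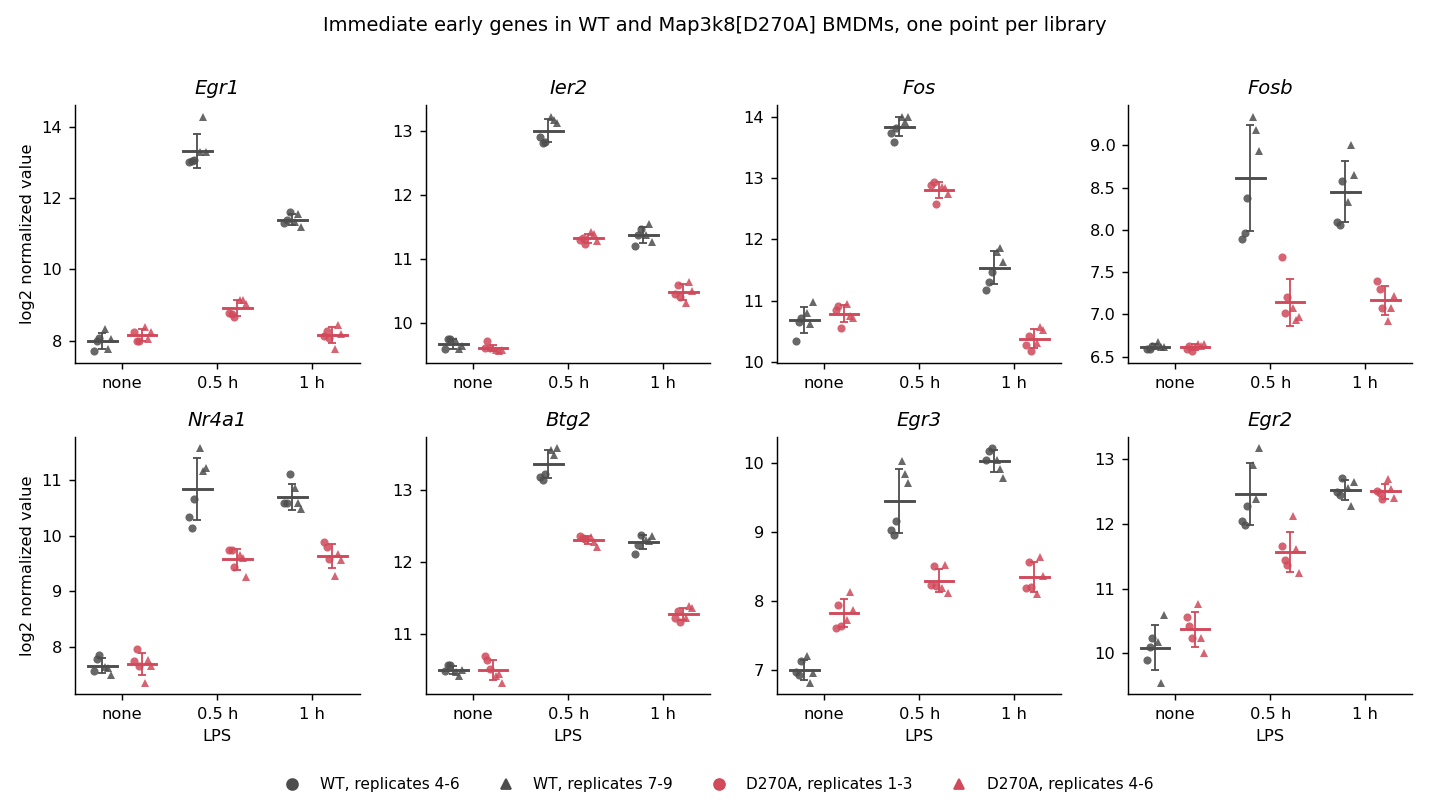
Log2 normalized values of 8 immediate early genes are plotted for each library without LPS and at 0.5 and 1 h (horizontal axis), in WT (gray) and D270A cells (red). Lines mark the group mean, error bars the SD (n = 6), circles WT replicates 4 to 6 and D270A replicates 1 to 3, and triangles WT replicates 7 to 9 and D270A replicates 4 to 6. At 0.5 h the genotypes are apart for all genes shown but Egr2, and Egr3 is the gene that is higher in D270A cells without LPS.

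Among 29 other immediate early regulators tested, 11 fell (0.892% of all genes) and none rose (0.48%), with a median difference of -0.22 against -0.01 over all genes tested. In the first replicate set 6 were lower (0.555%) and none was higher (0.395%), with a median of -0.06. In the second 17 were lower (1.89%) and 1 was higher (0.774%), with a median of -0.36. Ier2, a nuclear protein named for its immediate early response, ran from 12.81 to 13.22 in WT (median 13.00) and from 11.22 to 11.41 in D270A cells (median 11.31). The spread within each genotype was small beside the difference of -1.68 ± 0.0741 (SE; adjusted p = 3.86e-25). Btg2, an antiproliferative protein that promotes mRNA deadenylation, ran from 13.14 to 13.58 in WT and from 12.20 to 12.36 in D270A cells, a difference of -1.05 ± 0.06 (SE; adjusted p = 4.39e-20). Ier3, a stress-response gene, ran from 10.48 to 10.76 in WT and from 9.54 to 9.92 in D270A cells and fell by 0.81 (adjusted p = 2.17e-07). Ier5 fell by 0.45 (adjusted p = 2.55e-08).

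The other members of that list that fell were Cebpb, Maff, Kdm6b, Klf2, Id3, Csrnp1, and Klf6. Cebpb, a leucine zipper factor of macrophage differentiation and inflammation, ran from 10.98 to 11.67 in WT and from 10.13 to 10.55 in D270A cells, a difference of -0.98 ± 0.126 (SE; adjusted p = 1.41e-07). It also differed before stimulation, at -0.63 (adjusted p = 0.00213), and the change of its difference with LPS did not pass the test. Maff, a small Maf protein, fell by 0.94, and Kdm6b, a histone H3K27 demethylase, by 0.87, each with overlapping groups. The other 18 did not pass, among them Myc (-0.13), Klf4 (0.09), and Btg1 (-0.04), examples chosen after their values were seen. Ppp1r15a (GADD34), which recruits a phosphatase to eIF2α and was outside the list, ran from 13.00 to 13.56 in WT and from 12.57 to 12.73 in D270A cells, a difference of -0.61 ± 0.0803 (SE; adjusted p = 2.37e-07).

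Promoters of these genes were read for the sites at which the factors of the pathway bind, and 5 of them are printed. They belong to induced genes that fell (Fos, Nr4a1, Btg2, and Zfp36) or to an induced gene that did not pass the test over all replicates (Cxcl2). All 5 hold a match to a motif, whereas other induced genes that fell, such as Egr2, Jun, and Junb, held none. The 5 are therefore not typical of the genes that fell. Each sequence is the 250 bases before 1 RefSeq transcript start in GRCm38.p6, 5′ to 3′ on the gene's strand, and capitals mark matches on either strand to 1 of 4 motifs: the CArG box (the SRF site), the ETS core CCGGAA (the core to which ELK1 and ELK4 bind), the cyclic AMP response element TGACGTCA, and the NF-κB site, of which matches to different motifs were searched separately and may overlap. For Fos, Btg2, Zfp36, and Cxcl2 this start is the outer end of the gene, and for Nr4a1 it is that of a shorter transcript, 12944 bases inside the span of the gene.
Fos (chr12:85473640-85473889, plus strand): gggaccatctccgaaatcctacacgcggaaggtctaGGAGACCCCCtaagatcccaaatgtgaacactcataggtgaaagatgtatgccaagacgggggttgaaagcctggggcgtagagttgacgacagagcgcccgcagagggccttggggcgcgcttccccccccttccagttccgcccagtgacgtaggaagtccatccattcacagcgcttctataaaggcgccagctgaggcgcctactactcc
Nr4a1 (chr15:101266596-101266845, plus strand): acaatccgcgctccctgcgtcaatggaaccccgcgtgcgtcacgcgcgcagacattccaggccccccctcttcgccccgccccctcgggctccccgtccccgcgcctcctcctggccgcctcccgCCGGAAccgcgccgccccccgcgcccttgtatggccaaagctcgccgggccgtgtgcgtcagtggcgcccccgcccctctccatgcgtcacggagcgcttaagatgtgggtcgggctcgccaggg
Btg2 (chr1:134079156-134079405, minus strand): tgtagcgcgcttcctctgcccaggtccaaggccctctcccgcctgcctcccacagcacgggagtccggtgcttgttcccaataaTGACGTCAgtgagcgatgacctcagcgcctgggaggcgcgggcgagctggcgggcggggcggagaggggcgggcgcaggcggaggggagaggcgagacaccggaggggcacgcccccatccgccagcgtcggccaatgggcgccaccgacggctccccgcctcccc
Zfp36 (chr7:28379229-28379478, minus strand): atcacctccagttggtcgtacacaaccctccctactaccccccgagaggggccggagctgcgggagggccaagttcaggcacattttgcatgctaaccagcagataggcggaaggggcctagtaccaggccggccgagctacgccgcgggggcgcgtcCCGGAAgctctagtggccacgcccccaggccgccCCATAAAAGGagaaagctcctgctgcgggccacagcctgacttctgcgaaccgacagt
Cxcl2 (chr5:90903649-90903898, plus strand): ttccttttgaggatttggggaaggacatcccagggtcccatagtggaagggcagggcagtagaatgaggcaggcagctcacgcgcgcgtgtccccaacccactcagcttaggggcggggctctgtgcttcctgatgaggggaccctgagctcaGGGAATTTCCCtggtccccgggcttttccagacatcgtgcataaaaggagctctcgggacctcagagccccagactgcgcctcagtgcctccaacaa

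In these stretches Zfp36 held an ETS core at -92 to -87 and a CArG box at -58 to -49 from that transcript start. Nr4a1 held an ETS core at -125 to -120 and Btg2 a cyclic AMP response element at -166 to -159. Fos held a match to the NF-κB site at -214 to -205, and Cxcl2 held overlapping matches at -97 to -88 and -96 to -87. The RefSeq table gave a promoter for 9153 of the 11884 genes tested and for 24 of the 32 LPS-induced genes that were lower at 0.5 h. It held none for Egr1, Egr3, Ier2, or Nfkbiz. A single start was read for each gene, and it was the outer end of the gene for 4437 of the 9153. Of those 24, a CArG box was found in 1 (Zfp36), an ETS core in 4, a cyclic AMP response element in 3, and an NF-κB site in 5. Of the 28 promoters of induced genes that did not pass, the same motifs were found in 1, 4, 1, and 4. Over all tested genes with a promoter the shares were 1.01%, 23.6%, 2.76%, and 4.39%. Over all 27025 promoters in the table they were 1.39%, 12.3%, 1.56%, and 3.76%. A match of letters is not a measured site, and no match says only that the letters are not in this window.

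Induction by LPS was measured as the mean of the changes in WT and D270A cells between no LPS and 0.5 h, so that the choice of genes gave equal weight to the genotypes. At a rise of at least 1 and an adjusted p below 0.05, 65 genes were induced (0.547% of those tested). Of these 65, 32 were lower in D270A cells at 0.5 h (background 0.892%), 7 of them by at least 1, and none was higher. The 32 became 16 with the 12 libraries fitted alone, 17 in the first replicate set fitted alone, 58 in the second, and 19 without the libraries of highest Rn45s. The median difference of the 65 was -0.44, against -0.01 over all genes tested. The groups did not overlap, with D270A below WT, for 15 of the 65 (0.985% of all genes). In each of the 65 genes but Socs3 and Spry1 the rise in WT was larger than that in D270A cells, most of all for Egr1 (5.34 against 0.76). Ier2 rose by 3.33 in WT and 1.72 in D270A cells, Fos by 3.15 and 2.02, Nr4a1 by 3.19 and 1.88, Btg2 by 2.85 and 1.8, and Fosb by 2.00 and 0.53. By contrast Cxcl1, a neutrophil-attracting chemokine, rose by 3.85 and 3.78, and Cxcl2 by 3.96 and 3.76.

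Whether the genotype difference changed with stimulation was tested as the difference between the effects at 0.5 h and without LPS. It passed for 13 genes (0.109%), all of which were lower with LPS: Egr1, Egr3, Ier2, Fosb, Nr4a1, Egr2, Fos, Btg2, Maff, Kdm6b, Ier3, Junb, and Ppp1r15a. The shifts ran from -4.58 for Egr1 and -1.98 for Egr3 to -0.61 for Ppp1r15a. Libraries of 1 genotype with the same number deviated together with and without LPS, and with this correlation in the fit 24 genes passed, all lower with LPS and including the 13. The further 11 genes included Jun (-0.50, adjusted p = 0.0129), Ier5 (-0.33, adjusted p = 0.00268), Phlda1 (-0.90, adjusted p = 0.00358), and Zfp36 (-0.53, adjusted p = 0.0424). Without WT replicate 4, 5, or 6 the count was 21, 23, or 21, and without the 4 libraries of highest Rn45s it was 8.

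**Figure D3:**
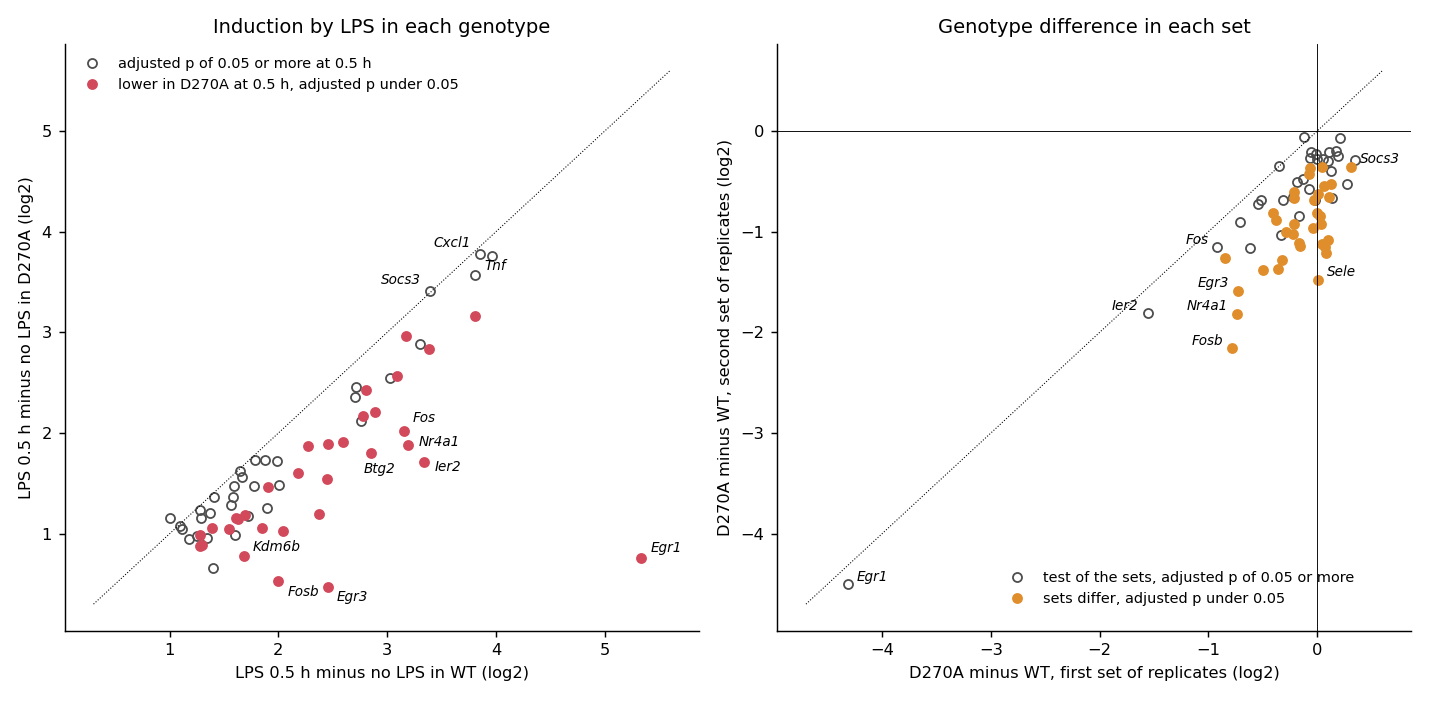
Left, the change with LPS in D270A cells is plotted against that in WT for the 65 LPS-induced genes (log2), with a dotted line of equality; filled points are genes lower in D270A cells at 0.5 h. Right, the genotype difference in the second set of replicates is plotted against that in the first set for the same genes; filled points are the 34 genes whose sets differ in the test, and all 34 lie below the dotted line of equality.

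The libraries of each genotype fell into 2 sets by their numbers, WT 4 to 6 and 7 to 9, and D270A 1 to 3 and 4 to 6. The labels name no batch or day for these sets, and taking WT 4 to 6 with D270A 1 to 3 as the first set rests on the order of the numbers alone. They are given because WT cells at 0.5 h differed between them: 56 of the 65 induced genes were higher in WT 7 to 9 than in WT 4 to 6 (adjusted p below 0.05, against 11.4% of all genes tested), with a median of 0.66. In D270A cells 8 of the 65 were higher in the second set (4.3% of all genes), with a median of 0.09. Without LPS the median shift between the WT sets over these genes was -0.04, with 1 gene higher (6.77% of all genes) and 3 lower (7.42%), and at 1 h it was -0.22, with 4 higher (8.77%) and 28 lower (12.6%). Of the 3 times, the induced genes were on balance higher in WT 7 to 9 at 0.5 h only. Of 8 neutrophil markers tested, 4 were higher in WT 7 to 9 at 0.5 h (11.4% of all genes), with a median of 0.53. In D270A cells 2 of the 8 were higher in the second set at 0.5 h (4.3% of all genes), with a median of 0.30.

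The genotype difference is described in each set. The sets were split with the WT shift known and share its libraries, so the values by set restate that shift in part and are not separate evidence of a difference between the sets. In the first set 13 of the 65 induced genes were lower in D270A cells (0.555% of all genes were lower) and 1, Socs3, was higher (0.395%), with a median of -0.07. In the second set 52 were lower (1.89%) and none was higher (0.774%), with a median of -0.69. By the contrast of the sets, an adjusted p below 0.05 was reached by 94 genes (0.791%), 34 of the induced genes among them, and all 34 were more negative in the second set (0.631%). With the 12 libraries fitted alone 40 genes reached it. The 13 induced genes that were lower in both sets, by the contrasts of the sets in the joint fit, were Egr1, Egr3, Ier2, Ier3, Fos, Fosb, Jun, Junb, Nr4a1, Btg2, Maff, Nfkbiz, and Ppp1r15a, and a further 39 were lower in the second set and did not pass in the first. Egr1 differed by -4.32 in the first set and -4.5 in the second, Ier2 by -1.56 and -1.81, and Fos by -0.92 and -1.15. Fosb differed by -0.78 and -2.16 and Nr4a1 by -0.74 and -1.82.

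Of 16 cytokine genes tested, 2 fell over all replicates (0.892% of all genes), Lif (by 0.49) and Osm (by 0.35). None of the 16 fell in the first set (0.555%) and 5 fell in the second (1.89%), and Osm passed in neither set. Tnf ran from 14.90 to 15.87 in WT and from 14.98 to 15.47 in D270A cells, which overlapped, and its difference was -0.24 (95% interval -0.43 to -0.05; adjusted p = 0.266). Without WT replicate 5 Tnf passed (-0.33, adjusted p = 0.0469). Its WT values were 14.99, 14.90, and 14.97 in replicates 4 to 6 and 15.76, 15.61, and 15.87 in replicates 7 to 9. The D270A values were 15.04, 14.98, and 15.04 in replicates 1 to 3 and 15.47, 15.11, and 15.02 in replicates 4 to 6. Tnf therefore differed by 0.06 in the first set and by -0.55 in the second.

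Il1b, which encodes the IL-1β precursor, showed the same split, with WT values of 11.17, 11.11, and 11.42 in replicates 4 to 6 and 12.76, 12.37, and 12.63 in replicates 7 to 9. Its D270A values ran from 11.10 to 11.61. The difference over all replicates was -0.57 (adjusted p = 0.0601), with 0.08 in the first set and -1.22 in the second. Il1a, which encodes IL-1α, differed by -0.54 (adjusted p = 0.157), with 0.07 and -1.15 in the sets. Il10, an anti-inflammatory cytokine, differed by -0.35 (adjusted p = 0.192), with -0.02 and -0.68 in the sets. LPS raised Il10 by 2.71 in WT and 2.45 in D270A cells. Without WT replicate 4, 5, or 6, which left more of the second set, Il1b and Il1a passed the threshold, at differences of -0.72, -0.73, and -0.67 for Il1b and -0.73, -0.70, and -0.67 for Il1a. Both passed with all libraries of the series (adjusted p = 0.00641 for Il1b and 0.0323 for Il1a), and Il1b also with quantile normalization (0.0332), with the replicate set as a term (0.0437), and without D270A replicate 4 (0.0461).

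Of 17 chemokine genes tested, Ccl4 (by 0.44) and Ccl3 (by 0.35) fell (0.892% of all genes) and 15 did not pass. In the first set none was lower (0.555%) and 1 was higher (0.395%). In the second set 6 were lower (1.89%) and none was higher (0.774%). Cxcl1 differed by -0.11 (95% interval -0.38 to 0.15), Cxcl2 by -0.32 (95% interval -0.53 to -0.12; adjusted p = 0.116), and Ccl2, which attracts monocytes, by 0.05 (95% interval -0.16 to 0.27). Cxcl2 was at -0.07 in the first set and -0.57 in the second, and it passed without WT replicate 4, 5, or 6 (adjusted p = 0.0332, 0.024, and 0.036), without D270A replicate 4 (adjusted p = 0.0288), and with all libraries of the series (adjusted p = 0.0175). None of the 10 prostaglandin genes passed (1.37% of all genes did), and at that share few or none of such a list would. Ptgs2 (cyclooxygenase 2) differed by -0.65 (adjusted p = 0.0659), with -0.16 and -1.15 in the sets. Ptgs2 passed without WT replicate 4, 5, or 6 (adjusted p = 0.0178, 0.0104, and 0.0267), without D270A replicate 4 (adjusted p = 0.0371), with all libraries of the series (adjusted p = 0.0109), with quantile normalization (adjusted p = 0.0294), and with the replicate set as a term (adjusted p = 0.0486).

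None of 25 type I interferon genes passed the threshold at 0.5 h (1.37% of all genes did), and their median difference was -0.01. At that share few or none of a list of this size would pass. Ifnb1, which encodes IFN-β, ran from 4.48 to 5.12 in WT and from 4.5 to 4.74 in D270A cells, a difference of -0.12 (95% interval -0.38 to 0.14). LPS had moved it by 0.14 in WT and 0.02 in D270A cells. At 1 h it was 1.25 higher in D270A cells (adjusted p = 5.6e-11), and the change from 0.5 h to 1 h passed the test (adjusted p = 7.08e-07).

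Of 18 genes for NF-κB inhibitors, feedback regulators, and subunits, 5 fell (0.892% of all genes): Nfkbiz, Nfkbid, Nfkbia, Nfkbie, and Nfkbib. In the first set 1 of the 18 was lower (0.555%), and in the second 12 were lower (1.89%). Nfkbia, which encodes IκBα, ran from 14.62 to 15.17 in WT and from 14.55 to 14.87 in D270A cells, a difference of -0.25 (adjusted p = 0.0152) with overlapping groups, and was at -0.07 in the first set and -0.43 in the second. The call for Nfkbia was lost with the 12 libraries fitted alone (adjusted p = 0.387), with library quality weights (0.0609), with the correlation of same-numbered libraries (0.0592), and without the libraries of highest Rn45s (0.431). It was also lost without WT replicate 7, 8, or 9 (adjusted p = 0.107, 0.0935, and 0.0759) and without D270A replicate 1 or 2 (0.0501 and 0.0604). Nfkbiz, an inducible nuclear IκB protein, had WT values of 13.54, 13.52, and 13.64 in replicates 4 to 6 and 14.48, 14.44, and 14.49 in replicates 7 to 9. Its D270A values were 13.35, 13.19, and 13.31 in replicates 1 to 3 and 13.69, 13.41, and 13.31 in replicates 4 to 6, so it was lower in each set, at -0.28 and -1.0. Tnfaip3 (A20) did not pass over all replicates (-0.28, adjusted p = 0.329).

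Of 18 feedback genes of the MAP kinases, 4 fell (0.892% of all genes): Errfi1 (by 0.80), Phlda1 (by 0.68), Dusp2 (by 0.64), and Dusp1 (by 0.44), and each had groups that overlapped. Dusp1, a phosphatase of p38 and JNK, ran from 14.35 to 15.01 in WT and from 14.15 to 14.40 in D270A cells. Dusp1 and Dusp2 did not pass with the 12 libraries fitted alone (adjusted p = 0.169 and 0.288), nor without the libraries of highest Rn45s (adjusted p = 0.111 and 0.271). Dusp5, a nuclear phosphatase of ERK1/2, did not pass (-0.44, adjusted p = 0.269), but passed without WT replicate 5 (-0.62, adjusted p = 0.0343). None of these 18 was lower in the first set (0.555%) and 8 were lower in the second (1.89%). Of 8 mRNA decay factors, Zfp36 (tristetraprolin), which promotes the decay of AU-rich transcripts such as Tnf, and Tob2 fell (0.892% of all genes). Zfp36 ran from 14.74 to 15.29 in WT and from 14.40 to 14.70 in D270A cells, which did not overlap, a difference of -0.50 ± 0.0927 (SE; adjusted p = 0.000404). Without the libraries of highest Rn45s Zfp36 did not pass (difference -0.41, adjusted p = 0.125).

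**Figure D4:**
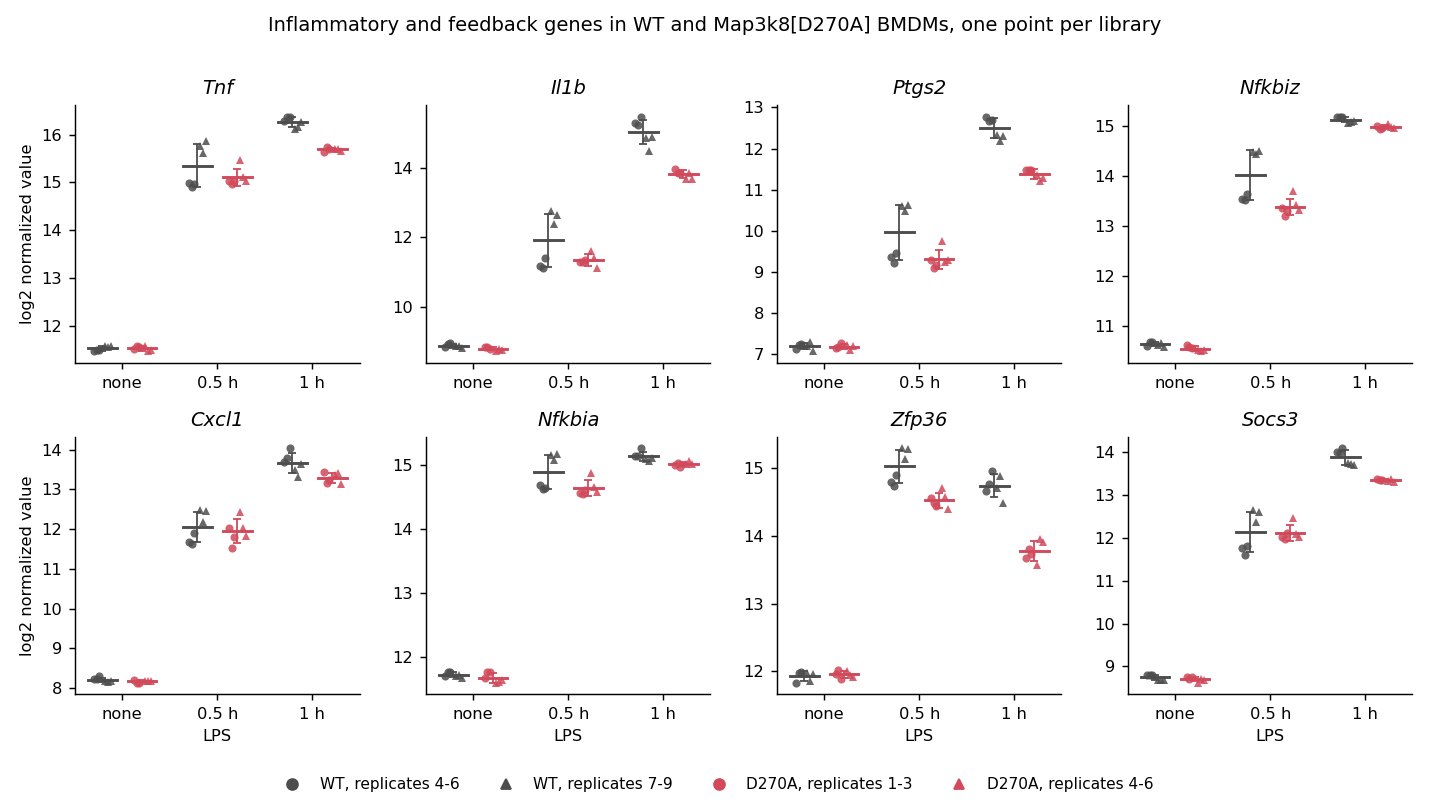
Log2 normalized values of 8 inflammatory and feedback genes are plotted for each library without LPS and at 0.5 and 1 h (horizontal axis), with the groups, symbols, lines, and error bars of the plot of immediate early genes. At 0.5 h the WT triangles (replicates 7 to 9) lie above the WT circles (replicates 4 to 6) for each gene, and D270A replicate 4 is the highest of the 6 D270A values for each gene.

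The genes of the pathway itself differed little between the genotypes. Of 22 genes of the TPL-2 pathway tested, from the IKK subunits to ELK1 and ELK4, 1 passed the threshold (1.37% of all genes), Map3k8, which ran from 9.84 to 10.10 in WT and from 9.64 to 9.81 in D270A cells. Its difference was -0.25 ± 0.054 (SE; adjusted p = 0.00383), and it was -0.10 without LPS (adjusted p = 0.498) and 0.01 at 1 h (adjusted p = 0.954). Map3k8 did not pass at 0.5 h in the first set fitted alone (difference -0.15, adjusted p = 0.22) or without the libraries of highest Rn45s (difference -0.21, adjusted p = 0.273). LPS had raised Map3k8 by 1.03 in WT and 0.88 in D270A cells. None of 13 LPS receptor and adaptor genes passed (1.37% of all genes did), and their differences lay between -0.18 (Cd14) and 0.07. None of 14 SRF cytoskeletal targets passed (1.37% of all genes did), with differences between -0.17 and 0.12. At that share few or none of either list would pass.

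Some genes differed also without LPS. Of the 163 genes with an adjusted p below 0.05 at 0.5 h, 60 also had an adjusted p below 0.05 in the same direction without LPS (1.44% of all genes tested passed without LPS, 0.833% lower and 0.606% higher), and none of these 60 was an LPS-induced gene. By direction they were 27 of the 106 lower and 33 of the 57 higher genes. The 4 genes higher by at least 1 were Gfra2, a receptor for neurturin (chr14:70890107-70979840), Ankrd29 (chr18:12252357-12306013), Phyhip (chr14:70457517-70468826), and Cables1, a protein that links cyclin-dependent kinases to tyrosine kinases (chr18:11839274-11945627). Positions are those of RefSeq GRCm38.p6.

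Cables1 ran from 5.25 to 5.6 in WT and from 6.50 to 6.72 in D270A cells, a difference of 1.17 ± 0.0865 (SE; adjusted p = 2.35e-15), and of 1.29 without LPS and 1.26 at 1 h. Ankrd29 ran from 3.61 to 4.09 in WT and from 5.15 to 5.42 in D270A cells, a difference of 1.41, and of 1.5 without LPS. The groups were apart for both genes. Phyhip was near the floor in WT (1.66 to 1.83) and ran from 2.57 to 3.59 in D270A cells, so it passed the filter on low values only through D270A libraries. Gfra2 ran from 2.98 to 3.51 in WT and from 3.50 to 5.50 in D270A cells, where replicate 4 lay within the WT range. In the second replicate set fitted alone Gfra2 did not pass (adjusted p = 0.144). With a filter at a linear value of 100, 1 higher gene was left.

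Lower genes that differed also without LPS were Prex2, a guanine nucleotide exchange factor for Rac (chr1:10993273-11303683), Lrrc17 (chr5:21543527-21575911), AY074887 (chr9:54950244-54950954), and Mir684-1 (chr2:80628705-80628790). Prex2 ran from 4.92 to 5.25 in WT and from 3.11 to 3.46 in D270A cells, a difference of -1.88 ± 0.311 (SE; adjusted p = 4.3e-05), and of -1.83 without LPS. Lrrc17 differed by -1.31 and -1.51, AY074887 by -1.27 and -1.36, and Mir684-1 by -1.19 and -1.04, at 0.5 h and without LPS. A value under a miRNA name here is of RNA reads over that locus and not of the mature miRNA. The D270A values of Mir684-1 at 0.5 h (2.91 to 3.01, against 3.84 to 4.31 in WT) were all below the filter on low values, as were most of those of Prex2 and of Lrrc17 (2.92 to 3.36, against 4.28 to 4.69), so at 0.5 h Mir684-1 reached the filter only in WT.

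At 1 h these genes did not all keep their difference. Prex2 did not pass (difference -0.72, adjusted p = 0.149), and its D270A values were 3.31, 3.41, and 3.26 in replicates 1 to 3 and 5.73, 5.44, and 5.61 in replicates 4 to 6, against 4.91 to 5.29 in WT, so replicates 4 to 6 lay above the WT range. AY074887 differed by -0.83 (adjusted p = 0.00117), with 3.98, 4.06, and 4.22 in D270A replicates 1 to 3, 5.42, 5.27, and 5.39 in replicates 4 to 6, and 5.38 to 5.95 in WT. Mir684-1 differed by -0.71 (adjusted p = 0.0052), with 2.96, 2.96, and 2.97, then 3.56, 4.04, and 4.02, against 3.97 to 4.26 in WT. Lrrc17 was below WT (3.90 to 4.74) in all 6 D270A libraries (2.80 to 3.54), at a difference of -1.20 (adjusted p = 1.83e-11). Cables1, by contrast, was apart between the genotypes in every library at 1 h, at 6.46 to 6.77 in D270A cells and 5.25 to 5.46 in WT. The change from 0.5 h to 1 h did not pass the test for Prex2, Lrrc17, AY074887, or Mir684-1 (adjusted p = 0.289, 1, 0.828, and 0.695).

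The same genes at 0.5 h are given for the other groups of the series, each set against the same WT libraries. Prex2, Lrrc17, AY074887, and Mir684-1 were at -1.78, -1.35, -1.33, and -1.14 in Elk1-/-Elk4-/- cells and at -0.48, -0.98, -0.04, and 0.06 in Nfkb1[SSAA] cells. In WT cells with the MKK1/2 inhibitor PD0325901 they were at -0.97, -1.08, 0.10, and 0.10, and with the RSK inhibitor RSKi47 at -1.51, -1.37, -1.23, and -0.35.

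BC002163 was called at -1.16 (adjusted p = 0.0132) and was neither LPS-induced nor different without LPS by the test. It ran from 7.71 to 8.56 in WT. Its D270A values were 6.23, 7.68, and 7.87 in replicates 1 to 3 and 8.14, 6.56, and 5.95 in replicates 4 to 6, so the groups overlapped. Without D270A replicate 1, 5, or 6 its adjusted p was 0.0736, 0.0561, or 0.0766. It was 0.232 with the 12 libraries fitted alone, 0.278 in the first replicate set fitted alone, and 0.0551 in the second.

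By position, 125 of the 162 genes that had an adjusted p below 0.05 and a known position (77.2%) lay on chromosomes other than 18 and 14. Those chromosomes held 94.3% of the tested genes with a position, and 1.12% of their tested genes passed. Map3k8 itself lies at chr18:4331325-4352953. Of 40 tested genes in the first 15 Mb of chromosome 18, 15 had an adjusted p below 0.05 at 0.5 h (37.5%, against 1.37% of all genes with a position), and 14 of the 15 also differed in the same direction without LPS. These 15 were 9.26% of the 162, in a window that held 0.338% of the tested genes with a position. In the rest of the chromosome 4 of 248 did (1.61%). The 15 were 9 higher genes (Cables1, Ankrd29, Abhd3, Colec12, Lama3, Psma8, Ttc39c, Mpp7, and Osbpl1a) and 6 lower ones (Zeb1, Tmem241, Npc1, Rbbp8, Map3k8, and Riok3). A further window was chromosome 14 between 69 and 71 Mb, where 7 of 27 tested genes passed (25.9%): Gfra2, Phyhip, Tnfrsf10b, 4930480K23Rik, and Polr3d were higher, and Piwil2 and Egr3 (chr14:70077317-70082613) were lower. These windows were drawn after the positions had been seen, and no test was made of them.

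Among the genes named by the lowest adjusted p under a 2-fold difference, Npc1, the lysosomal cholesterol transporter, ran from 12.57 to 12.68 in WT and from 12.06 to 12.31 in D270A cells. Tmem241 fell by 0.50 at 0.5 h and was at -0.67 without LPS. Colec12, a scavenger receptor, was higher by 0.87 (adjusted p = 5.21e-08), Abhd3 by 0.91, Tnfrsf10b, a receptor for TRAIL, by 0.83, and Ttc39c by 0.47. Gapdh, a glycolytic enzyme often used as a reference gene, ran from 13.19 to 13.46 in WT and from 13.66 to 13.99 in D270A cells, which did not overlap, and was 0.48 higher at 0.5 h and 0.49 higher without LPS. At 1 h Gapdh was 0.24 higher in D270A cells (adjusted p = 0.00574). Gapdh has many processed pseudogenes, and whether reads were shared between them and Gapdh was not tested.

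**Figure D5:**
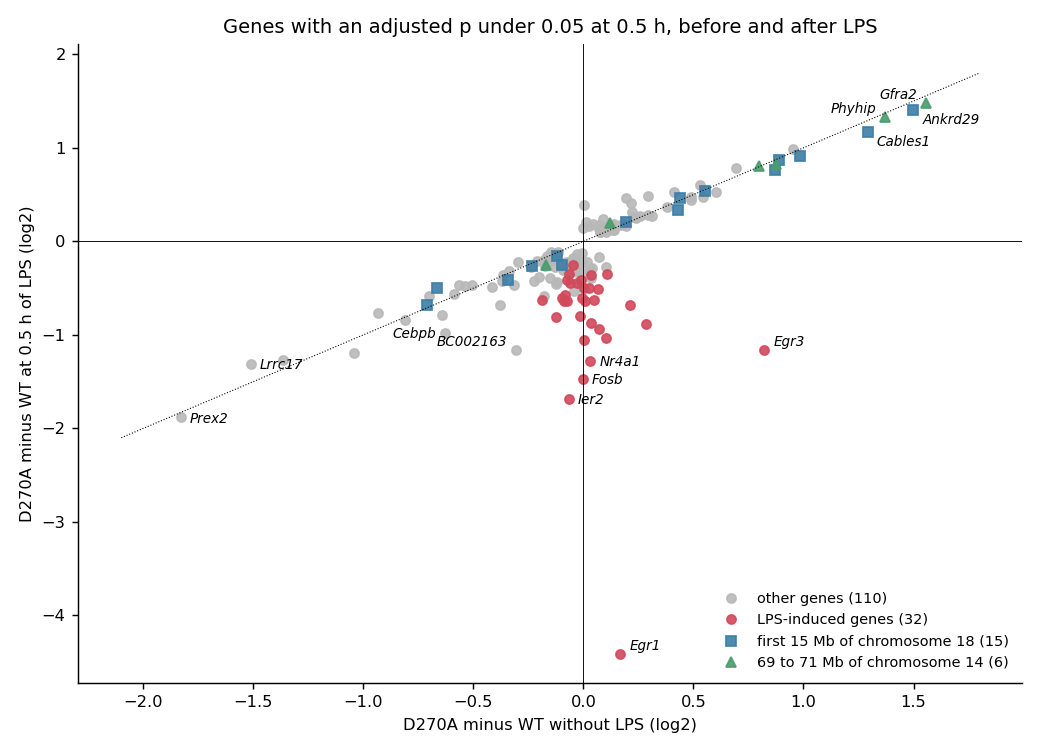
For the 163 genes with an adjusted p below 0.05 at 0.5 h, D270A minus WT at 0.5 h (log2, vertical axis) is plotted against the same difference without LPS (horizontal axis), with a dotted line of equality. The 32 LPS-induced genes lie below that line, and the genes of the first 15 Mb of chromosome 18 and of 69 to 71 Mb of chromosome 14 (Egr3 is drawn with the induced genes) lie along it.

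Against 1 h of LPS, at which 552 genes were lower in D270A cells (4.64%) and 611 higher (5.14%, with 9.79% in all), the genotype effect at 0.5 h differed for 142 genes (1.19%). It differed for 394 with the correlation of same-numbered libraries in the fit, and for 482 with library quality weights. For Egr1 the difference of -4.41 at 0.5 h became -3.24 at 1 h, for Ier2 -1.68 became -0.89, for Egr2 -0.89 became -0.02, for Jun -0.60 became 0.01, and for Ppp1r15a -0.61 became 0.20, and each of these changes passed the test. Nab2 (0.04 and -0.65) and Fosl1 (0.17 and -1.01) were lower at 1 h and had not passed at 0.5 h, and their changes passed too. Fos, Fosb, Nr4a1, Btg2, and Junb differed by -1.16, -1.29, -1.07, -1.0, and -0.65 at 1 h, and the change from 0.5 h did not pass for any of the 5.

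The other ways in which the series blocked the pathway at 0.5 h were compared with the same WT libraries, so their values are given side by side and were not tested against one another, except where no WT library enters. They held 6, 6, 4, and 3 libraries at 0.5 h and were WT cells with the MKK1/2 inhibitor PD0325901 at 0.1 µM, Nfkb1[SSAA] cells, in which p105 resists the degradation that frees TPL-2, Elk1-/-Elk4-/- cells, and WT cells with the RSK inhibitor RSKi47 at 2 µM. Egr1 was at -4.41 in D270A cells, -4.48 with PD0325901, -2.56 in Nfkb1[SSAA] cells, -4.45 in Elk1-/-Elk4-/- cells, and 0.13 with RSKi47. In the same order Ier2 was at -1.68, -1.5, -1.14, -0.91, and 0.05. Fos was at -1.04, -1.35, -1.28, -0.82, and -0.81, and Btg2 at -1.05, -0.93, -0.28, -0.25, and 0.06. Cables1 was at 1.17, -0.23, 0.06, -0.09, and -0.54.

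PD0325901 was set directly against D270A cells at 0.5 h, a contrast of 6 libraries against 6 in which genotype, inhibitor, and experiment cannot be told apart. It passed for 3733 of 11971 genes (31.2%), so single genes are given by their size. Egr1 differed by -0.07 between them (adjusted p = 0.757), Ier2 by 0.18 (adjusted p = 0.0634), and Btg2 by 0.12 (adjusted p = 0.163). Egr3 differed by -0.94 (adjusted p = 2.31e-08), Fosb by -0.48, and Fos by -0.31 (adjusted p = 0.019), all lower with PD0325901. Cables1, Ankrd29, Phyhip, and Gfra2 differed by -1.40, -1.25, -1.33, and -1.62.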

How the data were processed

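RNA-seq libraries of BMDMs were analysed from the deposited table. Per the study's methods, single-end, strand-specific reads were mapped with STAR and counted over RefSeq genes of mm10 with RSEM. The submitters' processing notes list mm10, STAR 2.5.1b, RSEM 1.2.29, and DESeq2 1.10.1, and the study's methods name other versions of STAR and RSEM. The values deposited by the authors are log2 normalized expression. Neither the transformation nor the depth of each library is given in the sources used here, so no counting interval was made and no count test was run.

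The values were tested with limma 3.58.1 in R 4.3.3, without a trend, in 1 fit of 62 libraries (WT, D270A, and Elk1-/-Elk4-/- groups). Genes were kept if 4 or more of these libraries reached a linear value of 10 (11884 of 18098), and p values were adjusted over all of them (Benjamini-Hochberg). A count of 1 value above 25 was treated as missing. Genes were called at an adjusted p below 0.05, with or without a difference of at least 1. Genes named were all those called with the size limit, the 8 of lowest adjusted p in each direction below it, all members of the Egr and Nab, Fos, Jun, and Nr4a lists, and a fixed set of pathway and inflammatory genes; others are examples beside a list's counts. The members and gene lists were chosen with earlier results of these data known. On simulated data of 11884 genes for the comparison at 0.5 h, 98% of changes of 0.75 and 100% of changes of 1.5 were recovered, with 6 false calls.

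Positions came from RefSeq GRCm38.p6, matched by symbol for 11848 genes, of which 461 by synonym, and promoters for 9153. Figures were drawn with matplotlib 3.10.9. Same-numbered libraries of a genotype deviated together with and without LPS (correlations of 0.428 to 0.793 in all 12). WT and D270A libraries of the same number, 4, 5, and 6, did not (-0.328, -0.0576, and -0.418). Pairing of the genotypes in another order, such as WT 4 with D270A 1, was not checked in this way. Alternatives were other fits, filters, scalings, thresholds, and left-out libraries.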

Additional observations from a re-analysis of the deposited data

Results flagged for a closer look

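Of 112 groups of 6 libraries tested for a library far from the others, 8 had one, and chance gives about 1 in 20 groups. Egr1 was 14.27 in WT replicate 8, against 13.02 to 13.28 in the other WT libraries, and Tnfrsf10b was 7.29 in the same library, against 6.64 to 6.84. D270A replicate 4 was far above the other D270A libraries for Ptgs2 (9.74), Dusp2 (11.27), Cxcl2 (13.9), Nfkbia (14.87), and Tnf (15.47). Fosb was 7.67 in D270A replicate 1, against 6.93 to 7.20 in the others.

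A test of the difference between conditions or replicate sets passed in 34 of 168 cases, each a named gene in 1 contrast. Many of the named genes were chosen by their difference at 0.5 h, which enters each contrast. A larger share than over all genes was therefore built in. Over all genes tested, 0.109% passed for 0.5 h against no LPS, 1.19% for 1 h against 0.5 h, and 0.791% between the sets. The genotype effect at 0.5 h was below that without LPS for Egr1 (by -4.58), Egr3 (-1.98), Ier2 (-1.62), Fosb (-1.47), Nr4a1 (-1.31), Egr2 (-1.17), Fos (-1.14), Btg2 (-1.06), Ier3 (-0.68), Junb (-0.68), and Ppp1r15a (-0.61). From 0.5 h to 1 h the genotype effect moved by 1.17 for Egr1, 0.79 for Ier2, 0.87 for Egr2, 0.81 for Ppp1r15a, 0.61 for Jun, 1.38 for Ifnb1, -0.69 for Nab2, and -1.18 for Fosl1.

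The replicate sets were split with the shift between the WT libraries at 0.5 h known, so the following values restate it in part. The effect in the second replicate set less that in the first was -1.38 for Fosb, -1.08 for Nr4a1, -0.86 for Egr3, -0.42 for Btg2, -0.99 for Ptgs2, -0.95 for Dusp2, -0.51 for Junb, -0.41 for Ppp1r15a, -1.29 for Il1b, -1.23 for Il1a, -0.31 for Ier5, -0.96 for Dusp5, -0.46 for Dusp1, -0.35 for Nfkbia, and -0.61 for Tnf.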

How the results depend on the processing

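The depth of each library was not known, and with 6 libraries a group the smaller differences moved in and out of the calls. Of the values for single named genes under alternatives, none changed sign where called. With the size limit, 12 lower and 4 higher genes became 6 and 7 in the first replicate set alone, and 27 lower genes were called in the second. A 1.5-fold limit gave 32 and 12, a limit at the natural logarithm of 2 gave 21 and 11, and a filter of 100 left 1 higher gene. By adjusted p alone, 106 lower and 57 higher genes became 64 and 27 with the 12 libraries fitted alone and 319 and 408 with library quality weights. The higher genes numbered 87 with all libraries of the series, 92 with the correlation of same-numbered libraries, 114 with quantile normalization, 113 with the replicate set as a term, and 120 in the first set alone. The 32 LPS-induced lower genes became 16 with the 12 libraries alone, 17 in the first set alone, and 58 in the second. The 94 genes whose sets differed became 40 with the 12 libraries alone. The 13 genes that differed from no LPS became 24 with the correlation of same-numbered libraries, and the 142 that differed from 1 h became 394 with it and 482 with quality weights. Leaving out the libraries with Rn45s above 16, an alternative chosen after seeing the data, left 39 lower and 20 higher genes by adjusted p, 19 induced lower genes, and 8 that differed from no LPS. The cause of these changes was not tested, beyond the smaller number of libraries in some fits.

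Leaving out each replicate in turn gave 11 to 15 lower and 4 to 5 higher genes with the size limit, 74 to 123 lower and 31 to 94 higher by adjusted p, 26 to 45 induced lower genes, 11 to 23 genes that differed from no LPS, and 96 to 173 that differed from 1 h. The lowest counts by adjusted p, 74 and 31, came without WT replicate 8. Without D270A replicate 2 the higher genes numbered 34.

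The replicate block pairs WT and D270A libraries by number 4, 5, and 6, although libraries of the same number did not deviate together between the genotypes. With it 11 genes were higher with the size limit, and 1839 lower and 1587 higher by adjusted p.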
